A study of Mus musculus with 9 samples.

Results

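Regions of at least 800 bp in the FAIRE plasmid library that overlapped no listed enhancer were examined in E14 mouse embryonic stem cells. They were chosen by 2 measured properties: their width in the deposited list of library regions, and the absence of any overlap with the mESC, LIF-dependent and RA-induced enhancer lists. Of 186959 library regions, 5824 met both conditions (3.12%), and they are called wide regions without an enhancer here. They covered 5597 kb, or 7.94% of the bases in the library list. The 773 library regions of the same width that did overlap an enhancer are the main comparison, and the 176335 narrower regions without an enhancer are the second.

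The library was made once, from accessible DNA of cells treated with retinoic acid (RA) for 4 h. It was transfected in 3 biological replicates, each giving a sample without leukemia inhibitory factor (LIF) but with 1 µM RA for 4 h and a sample kept with LIF. Peaks of the retinoic acid receptor RARA came from 1 ChIP-seq library of cells given RA for 4 h, with 1 input library of the same treatment. All groups share the same cell line, E14, a feeder-free stem cell line that LIF holds in the pluripotent state, and all reporter samples share 1 plasmid library. The lists of reporter activity come from merged replicates and no depth is given, so no value here has a spread between cultures. Units of every test are regions of the genome, and neighbouring regions are not independent.

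FAIRE recovers DNA that carries few nucleosomes, which in stem cells includes promoters, enhancers and sites of insulator proteins. STARR-seq places such fragments downstream of a transcription start in a plasmid, so that a fragment able to act as an enhancer drives its own transcription. Open chromatin and reporter activity are therefore separate properties, and many accessible sites drive no transcription in such plasmids. RARA binds DNA with an RXR partner at retinoic acid response elements, also without ligand, and activates its targets when RA is bound.

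Absence of a listed enhancer is absence of a call. Peak numbers in the mESC list run to 28102 while the list holds 4674 regions, so a wide region may have held a numbered peak that the deposited list leaves out. Among all library regions, 2.57% overlapped a listed enhancer. Among the 6597 wide regions 11.7% did, and 88.3% did not. The share with an enhancer was higher in each wider class. It was 0.666% in regions under 300 bp, 7.54% from 700 to under 800 bp, 10.2% from 800 to under 1000 bp and 17.1% from 1200 to under 1600 bp. Width and enhancer overlap define the regions, so this gradient is a description. Even in the widest class, at least 1600 bp, 29 of 38 regions had no listed enhancer.

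**Figure D1:**
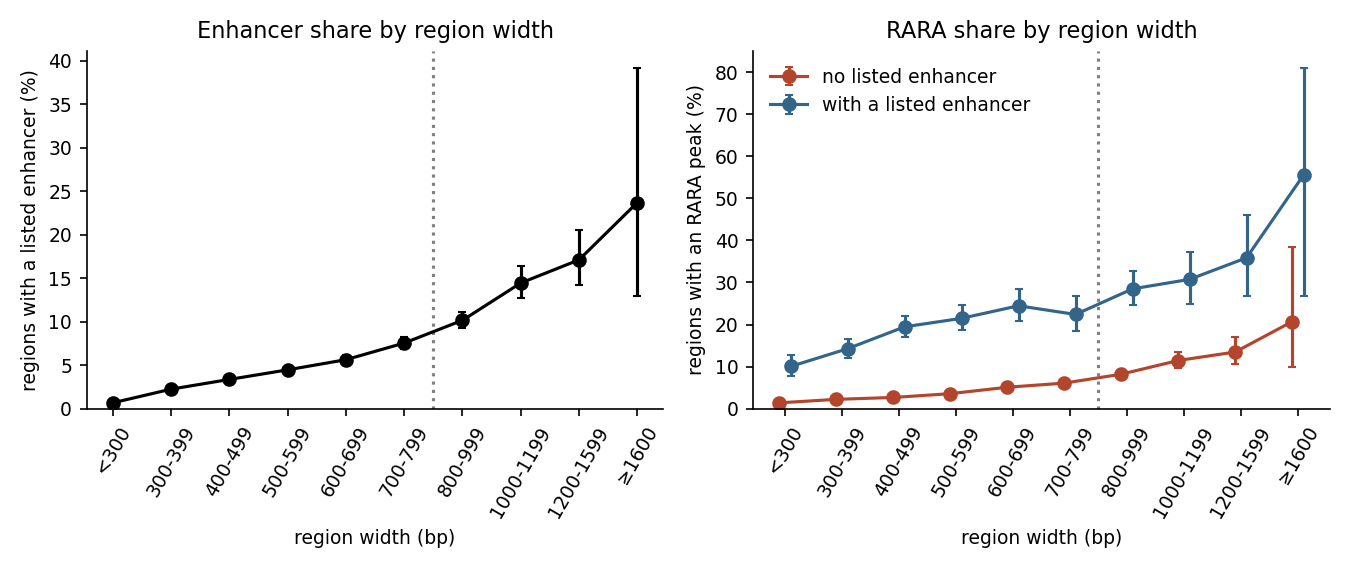
Share of library regions with a listed enhancer (left) and with an RARA peak (right) against region width in bp, with 95% Wilson intervals; the dotted line marks 800 bp. In every width class, below 800 bp as well as above, the RARA share was lower in regions without an enhancer. It was 1.37% against 10.0% under 300 bp and 8.18% against 28.5% from 800 to under 1000 bp. From 1600 bp up the intervals overlapped (6 of 29 against 5 of 9 regions).

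The width limit cut through a continuous range. Of the 37 library regions of exactly 800 bp, 32 had no enhancer, and of the 37 that were 1 bp narrower, 35 had none. Just inside the limit, chr1:122509842-122510641 had an input fold of 2.52 and chr10:70424381-70425180 an input fold of 6.35. Just outside it, chr1:36469987-36470785 had an input fold of 7.33 and chr1:95600208-95601006 an input fold of 3.47. None of these 4 overlapped an RARA peak. Input fold is the authors' fold enrichment at the strongest summit of a region in the plasmid library, that is, how strongly the library holds that DNA. Positions are in mm9.

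Most wide regions without an enhancer were only a little wider than the limit. Their median width was 914 bp (quartiles 848 and 1024 bp), and the widest measured 2076 bp. Wide regions with an enhancer had a median of 956 bp (quartiles 866 and 1087 bp). The larger contrast was in how strongly the library held them. The median input fold was 7.33 in wide regions without an enhancer (quartiles 5.47 and 10.3) and 12.9 in wide regions with one (quartiles 9.66 and 16.6). Narrower regions without an enhancer had a median input fold of 5.33. The mESC enhancers were called over this same plasmid input, so input fold is not independent of the choice of regions and no test is given.

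Many wide regions are several adjoining peaks of accessibility. The authors' caller marked at least 2 summits in 38.3% of wide regions without an enhancer, in 67.9% of those with one and in 2.45% of narrower regions without one. At least 3 summits were marked in 9.29% of wide regions without an enhancer and in 20.4% of those with one. Width and input fold were nearly unrelated among the 5824 regions (Spearman rho 0.0932 across regions of 1 library), and width followed the number of summits weakly (rho 0.236).

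At every level of input fold, more wide regions were without an enhancer than with one. In the decile of wide regions with the lowest input fold (median 3.87), 651 had no enhancer and 9 had one. In the decile with the highest input fold (median 17.4), 392 had none and 268 had one, a share of 40.6% (36.9 to 44.4%, 95% Wilson interval).

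**Figure D2:**
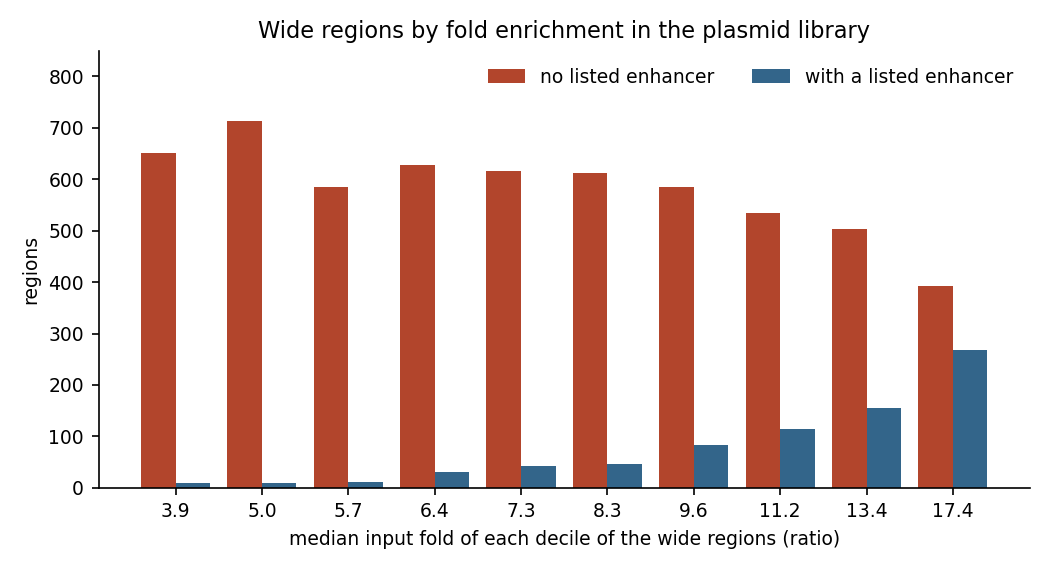
Number of wide regions without and with a listed enhancer (bars) in each decile of input fold, ordered from low to high, with the median fold of each decile on the x axis. Regions without an enhancer outnumbered the others in every decile, by 651 to 9 in the lowest and by 392 to 268 in the highest.

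The 10 wide regions without an enhancer that had the highest input fold reached 24.6 to 27.2. The first was chr2:175000812-175001750, with an input fold of 27.2 and 1 summit, followed by chr19:13879904-13880712 with 26.8. The third, chr17:17141612-17142599, had an input fold of 26.2 and an RARA peak of 3.31-fold, and chr6:83781288-83782169 had 26.1 with the highest −log10 q of these 10, 254. These regions were 804 to 988 bp wide and had 1 or 2 summits. The nearest enhancer of any list lay between 24.2 and 1013 kb away, with a median of 220 kb. Of the 10, 2 overlapped an RARA peak, neither above 3.58-fold.

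The 10 widest regions without an enhancer measured 1791 to 2076 bp, with input folds between 5.45 and 12.2, well below those of the 10 best represented regions. The widest, chr4:108010492-108012567, had 6 summits, an input fold of 10.1 and no RARA peak, and lay 2.20 kb from an enhancer. Next came chr16:8459253-8461290, 2038 bp wide with a single summit, and chr17:71221451-71223482, 2032 bp wide with 5 summits and an RARA peak of 3.16-fold. The fifth, chr5:118894443-118896376, was 1934 bp wide with 6 summits and an RARA peak of 31.1-fold. Of the 10, 3 overlapped an RARA peak. Of the same 10, 3 were also among the 10 regions of most summits. These were the 7 regions with 5 or 6 summits and the 3 widest of the 55 with 4, and they measured 1192 to 2076 bp. That set also held chr13:23503013-23504409, with 5 summits and an RARA peak of 6.69-fold.

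Wide regions with an enhancer serve as the comparison. The widest of them, chr12:81743647-81745768, was 2122 bp wide, had an input fold of 12.5 and held an mESC enhancer with an activity score of 2.29 and overlapped an RA-induced enhancer. The second, chr7:87158773-87160792, was 2020 bp wide with 5 summits and an enhancer score of 1.79. Across the 751 wide regions that held an mESC enhancer, the enhancer covered a median of 34.2% of the region (quartiles 27.6 and 42.9%). The median width of these enhancers was 335 bp, and 313 bp in the whole mESC list. A small covered share thus follows from the width limit. The enhancer summit lay a median of 27 bp from the strongest input summit and within 100 bp of it in 80.2%. The activity score, whose scale is not stated, had a median of 2.43 in wide regions and 2.52 in narrower ones. The highest in a wide region, 4.23, was at chr13:43493589-43494393.

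The choice of regions did not use the RARA peaks, but it did use the list of RA-induced enhancers. RARA was less frequent in wide regions without an enhancer than in wide regions with one. An RARA peak overlapped 543 of 5824 wide regions without an enhancer (9.32%, 95% Wilson interval 8.60 to 10.1%) and 234 of 773 with one (30.3%, 27.1 to 33.6%). The difference was -20.9 percentage points and the odds ratio 0.237 (95% exact interval 0.198 to 0.284). It passed a two-sided Fisher's exact test over regions (p = 9.81e-51, adjusted p = 1.96e-50 over 4 tests). Against all library regions, of which 2.94% overlapped an RARA peak, both shares were high. The contrast was not particular to wide regions. Among narrower regions, 2.25% without an enhancer and 18.3% with one (737 of 4027) overlapped an RARA peak. Of the 62 wide regions with an RA-induced enhancer, 34 (54.8%) overlapped an RARA peak, and of the 751 with an mESC enhancer 29.7% did. With the mESC list alone used to divide the wide regions, the odds ratio was 0.248 (0.207 to 0.298). The result rests on 1 ChIP library.

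Regions with an enhancer were also better represented in the library, so the comparison was repeated with input fold taken into account. Within quartiles of input fold the odds ratio was 0.352 (Mantel-Haenszel, 95% interval 0.292 to 0.424), and within width classes alone 0.248 (0.207 to 0.296). In logistic regressions chosen after the data were seen it was 0.359 (0.295 to 0.436) with width and input fold as terms and 0.403 (0.331 to 0.490) with the number of summits added. The RARA share of wide regions without an enhancer was 4.56% in the lowest quartile of input fold, 7.07% and 11.7% in the next, and 16.1% in the highest. In wide regions with an enhancer it was 28.6%, 38.6%, 31.0% and 28.6% in the same quartiles, with 21 regions in the lowest. The odds ratio ran from 0.120 in the lowest quartile (0.0424 to 0.388) to 0.479 in the highest (0.370 to 0.621), and a Breslow-Day chi-square test of equal odds ratios over the 4 quartiles, also chosen after the data were seen, gave p = 5.44e-07. In each quartile the difference passed Fisher's exact test (highest adjusted p = 0.00033 over 4 quartiles).

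**Figure D3:**
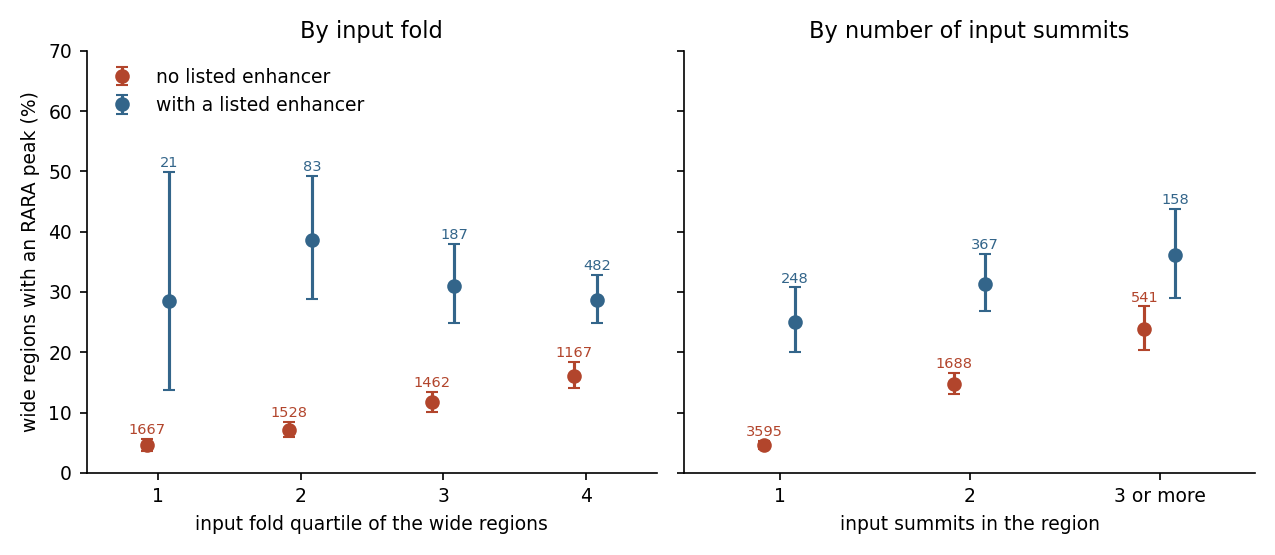
Share of wide regions with an RARA peak, without and with a listed enhancer, by quartile of input fold (left) and by number of input summits (right); bars are 95% Wilson intervals and the small numbers are regions. Without an enhancer the share was 4.56% in the lowest and 16.1% in the highest quartile, and with one it was 28.6% in both.

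Among wide regions without an enhancer, RARA was more frequent where more summits were marked. With 1 summit 4.59% overlapped an RARA peak (3.95 to 5.32%), with 2 summits 14.8% (13.1 to 16.5%) and with 3 or more 23.8% (20.4 to 27.6%). In wide regions with an enhancer the shares were 25.0%, 31.3% and 36.1%. Among the 5824 regions, a logistic regression chosen after the data were seen gave odds ratios of 2.86 for 2 summits (95% interval 2.31 to 3.55) and 5.36 for 3 or more (4.09 to 7.04) against 1 summit. Each doubling of input fold had an odds ratio of 1.72 (1.47 to 2.01). A doubling of width had one of 1.16 with an interval that included 1 (0.770 to 1.76) in that fit, and one of 2.55 (1.74 to 3.73) when the number of summits was left out. By width alone the RARA share was 8.18% from 800 to under 1000 bp, 11.4% to under 1200 bp, 13.5% to under 1600 bp and 20.7% in the 29 regions above. The 543 regions with an RARA peak had a median width of 939 bp and a median input fold of 9.43, against 912 bp and 7.16 in the 5281 without.

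RARA was nevertheless more frequent in wide regions without an enhancer than in narrower ones without one, of which 3974 of 176335 overlapped a peak (2.25%, 2.19 to 2.32%). The odds ratio was 4.46 (4.05 to 4.90, Fisher's exact p = 4.07e-156, adjusted p = 1.63e-155). A wider region offers more bases to overlap. Counted per length, there were 101 RARA peaks per Mb in wide regions without an enhancer and 62.7 in narrower ones. Among regions with an enhancer the order per length was the other way, with 326 per Mb in wide and 388 in narrower regions. Peaks overlapping only the edge of a region are counted in these densities. The strongest RARA summit lay inside 93.7% of bound wide and 78.1% of bound narrower regions without an enhancer. With an enhancer these shares were 95.7% and 88.2%. The densities are therefore not a full correction for width. With RARA summits counted only within 250 bp of the strongest input summit, a window of equal size for every region, the shares were 6.25% in wide and 1.89% in narrower regions without an enhancer (odds ratio 3.45, 3.08 to 3.86). With input fold as a term as well, the odds ratio was 2.45 (2.18 to 2.74) in a logistic regression chosen after the data were seen. In the same window, 21.5% of wide and 15.9% of narrower regions with an enhancer held an RARA summit. For regions with an enhancer, the order was thus reversed per length but not in the window of equal size, and this was not tested.

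Strong RARA peaks followed the same order. A peak of at least 5-fold, which 0.532% of all library regions overlapped, was present in 82 wide regions without an enhancer (1.41%, 1.14 to 1.74%). It was present in 52 wide regions with one (6.73%, 5.17 to 8.72%) and in 673 narrower regions without one (0.382%, 0.354 to 0.412%). The odds ratio was 0.198 against wide regions with an enhancer (0.137 to 0.289, Fisher's exact p = 3.39e-16, adjusted p = 3.39e-16). Against narrower regions without one it was 3.73 (2.92 to 4.70, Fisher's exact p = 1.70e-21, adjusted p = 2.27e-21). Within 250 bp of the strongest input summit, a window of equal size, the latter odds ratio was 2.85 (2.08 to 3.82). By any overlap it was 6.86 (3.61 to 11.9) with the limit at 1200 bp, which left 475 regions without an enhancer and offers more bases to overlap. At most bound regions RARA was weak, as in the whole RARA list, whose median fold was 3.06. The median fold of the strongest peak was 3.09 in wide regions without an enhancer, 3.43 in wide regions with one and 3.22 in narrower regions without one, and these medians were not tested against each other.

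The 10 wide regions without an enhancer that had the strongest RARA peaks ranged from 11.5-fold to 31.1-fold. The strongest was the wide, 6-summit region at chr5:118894443-118896376 described above, 7.41 kb from the nearest enhancer. It was followed by chr9:88847397-88848252 with an RARA fold of 18.7 and 1 input summit, and by chr4:124813559-124814885 with an RARA fold of 17.0 and 4 summits. The fourth, chr9:120060881-120061684, had an RARA fold of 16.6. Their input folds ran from 3.74 to 12.998, and none was among the 10 best represented regions. Wide regions without an enhancer held 564 of the 9757 RARA peaks, 5.78% of the list, and 64 of the 976 in its top decile by fold (6.56%).

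Where a wide region was bound, the position of RARA was measured from the strongest input summit alone. Of the 543 bound regions without an enhancer, 69.6% had at least 2 input summits, against 35.1% of the 5281 without an RARA peak. Distance to the nearest of several marked summits was not computed. The distance between the strongest RARA summit and the strongest input summit had a median of 159 bp in wide regions without an enhancer (quartiles 60 and 368.5 bp) and 130 bp in wide regions with one (quartiles 50 and 315 bp). It was 93 bp in narrower regions without one, which leave less room. Of the 543 bound regions without an enhancer, 39.4% had the RARA summit within 100 bp, against 44.0% of the 234 bound regions with one. These distances were not tested. In 21 of the 543, 2 RARA peaks overlapped the same region, and in the other 522 there was 1.

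**Figure D4:**
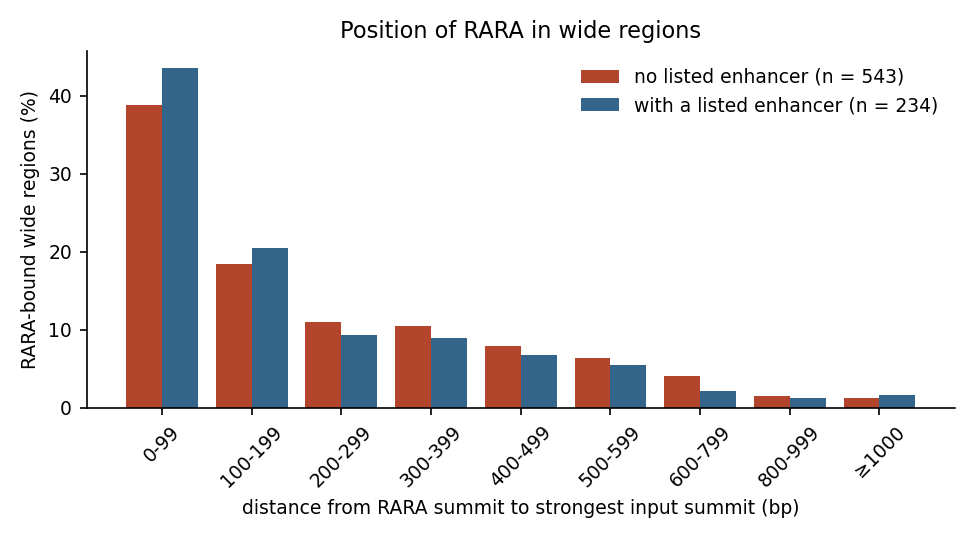
Distance in bp from the strongest RARA summit to the strongest input summit, as a percentage of the 543 RARA-bound wide regions without a listed enhancer and the 234 with one. The nearest class, under 100 bp, is the fullest in both groups, with 38.9% and 43.6%.

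Wide regions without an enhancer were spread over all autosomes and the X chromosome in close proportion to the library. They made up 2.84% of library regions on chromosome 10, the lowest autosome, and 3.43% on chromosome 17, the highest, and 2.95% on the X (76 of 2576; 2.36 to 3.68%). Their RARA share lay between 4.78% on chromosome 14 (10 of 209, 2.62 to 8.58%) and 14.5% on chromosome 17 (41 of 283, 10.9 to 19.1%). It rests on far fewer regions than the share of the library. The RARA share of all library regions by chromosome is not given here, so this range may not be particular to these regions. Differences between chromosomes were not tested. Of the wide regions, 18 of 94 on the X (19.1%, 12.5 to 28.3%) and 755 of 6503 on autosomes (11.6%) overlapped an enhancer. The median input fold of library regions was 6.33 on the X and 5.46 on autosomes. E14 cells are male and carry 1 X chromosome, and a link of either value to copy number was not tested.

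**Figure D5:**
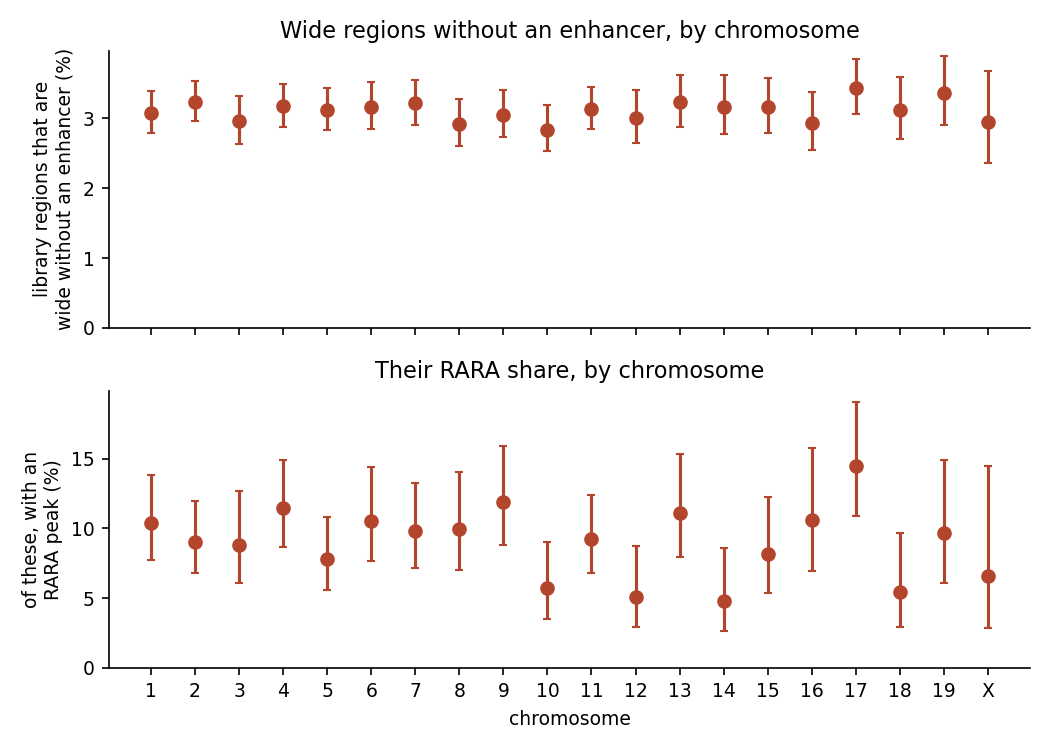
Share of library regions that are wide and without a listed enhancer (top) and the share of these that overlap an RARA peak (bottom), by chromosome, with 95% Wilson intervals. The top shares lie between 2.84% and 3.43% on autosomes, and the bottom ones between 4.78% and 14.5%.

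Along the chromosomes these regions occurred in 1823 of the 2568 windows of 1 Mb that held a library region. They were single in 526 of these windows, numbered 5 or more in 431 and 10 or more in 26. The fullest window, chr4:133000001-134000000, held 19 among its 220 library regions, 4 of them with an RARA peak, beside 1 wide region with an enhancer. The second, chr9:108000001-109000000, held 15 among 179 library regions, 3 of them with an RARA peak. The third, chr11:102000001-103000000, held 14 among 210, none with an RARA peak, and 4 wide regions with an enhancer. Of the 5824, 375 (6.44%) had another within 10 kb, 44 had one within 2 kb and 3144 (54.0%) had one within 100 kb. No share for an equal number of other library regions was computed. These counts therefore do not show whether the regions are scattered or grouped.

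The nearest enhancer of any list was usually far away. The median distance was 107 kb from wide regions without an enhancer (quartiles 39.9 and 265 kb) and 120 kb from narrower ones. Within 1 kb of an enhancer lay 0.567% of the wide and 0.975% of the narrower regions. Within 50 kb lay 30.2% (29.0 to 31.4%) and 28.1% (27.9 to 28.3%). Since overlap with an enhancer is part of the choice, these distances are a description. Wide regions without an enhancer that overlapped an RARA peak had a median distance of 73.8 kb, against 112 kb for those without one.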

How the data were processed

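FAIRE-STARR-seq and RARA ChIP-seq peak lists in mm9 coordinates were used as deposited, and samples were grouped by their titles. The submitters' processing notes name MACS2, Bowtie2, SAMtools, deepTools and UMI-tools, without settings or versions. The background against which the plasmid library was called is not stated in those notes. In each deposited list the authors gave the fold enrichment (a ratio), −log10 p, −log10 q, a score, and the summit. The score equalled 10 times the −log10 q as a whole number in at least 99.5% of rows of each list. The deposited mESC table gave an activity score of unstated scale. Peak names speak of merged replicates. Library peak numbers run to 397053, above the regions listed, and those of each enhancer list also exceed its regions. The library and enhancer lists therefore hold part of the numbered peaks. RARA peak numbers run to 9757, equal to the number of RARA regions listed.

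Rows sharing a region were collapsed to the highest −log10 q, which left 186959 of 195417 library rows and 9757 of 11366 RARA rows. An overlap was at least 1 bp. Shares carry 95% Wilson intervals, which cover counting error alone. Fisher's exact tests were two-sided and adjusted by Benjamini-Hochberg over 4 tests. The code was tested on simulated data. Named regions are the 10 widest, the 10 of highest input fold, the 10 of strongest RARA peak and the 10 of most summits (ties by width), 5 comparison regions by width and 5 by score, the 3 fullest windows, and 2 regions on each side of the width limit, with the leading ones given singly. Members, lists and tests were chosen with earlier results of these data known. No genome or annotation of mm9 was at hand and coordinates were not converted, so genes, promoters and sequences were not analysed here. Python 3.11.15, SciPy 1.17.1, statsmodels 0.14.6, pandas 2.3.3, NumPy 2.4.6 and Matplotlib 3.10.9 were used.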

Additional observations from a re-analysis of the deposited data

How the results depend on the processing

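The number of wide regions without an enhancer followed the width limit, with 19154 at 600 bp, 1690 at 1000 bp and 475 at 1200 bp in place of 5824 at 800 bp. Requiring an enhancer to share at least 50% of its length gave 5826. All 4 comparisons of RARA share kept their direction and stayed past the threshold under every alternative run. The odds ratio against wide regions with an enhancer ran from 0.195 to 0.403 over 16 alternatives, and against narrower regions without one from 2.45 to 6.43 over 12. For RARA peaks of at least 5-fold the ranges over 11 alternatives each were 0.149 to 0.252 and 2.79 to 6.86. All 4 comparisons were run with other width limits, definitions of an RARA overlap and sets of chromosomes, without regions within 1 kb of an enhancer, with a −log10 q limit on RARA peaks and within strata of input fold. The −log10 q limit left the 5-fold values as they were, and the strata for 5-fold peaks were chosen after the data were seen. Strata of width, the mESC list alone and a fit with summits were run for the first comparison only. Quartiles of input fold are coarse, and differences of input fold within them remain. No paired analysis was possible because the lists come from merged replicates with no value per replicate, and for the same reason leaving out replicates was not run. Depth is unknown, and with it the error of each peak's own values.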
